A study of Mus musculus with 6 samples.

Results

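The genes described here encode the pore-forming and accessory subunits of potassium, sodium, calcium and transient receptor potential (TRP) channels in mouse lung. They were chosen by symbol alone, as every probe whose gene symbol begins with Kcn and a letter, with Scn or Hcn and a digit, with Cacn and a, b or g, or with Trp and the family letter a, c, m or v. This gave 180 probes for 132 genes among 22951 probes and 16358 genes with a symbol on the array. The rule uses no measured value. The symbols also caught 2 genes that are no channel subunits, the noncoding antisense transcript Kcnq1ot1 and the TRPC4-associated protein Trpc4ap, and these are described apart but stay in the counts, as the rule includes them.

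Total RNA from lungs of C57BL/6 mice was hybridised in a single colour to 6 Agilent arrays. The 3 genotypes, with 2 arrays each, were mice homozygous for the hCD2-T-bet transgene (tg/tg), mice carrying it on a single allele (tg/wt) and wild-type mice without it (WT). The transgene places the transcription factor T-bet under human CD2 control, which is active in T cells, and the series concerns the alveolar proteinosis, a filling of air spaces with surfactant, of mice with too much T-bet in those cells. The labels used here give no age, and they do not say whether the arrays of a genotype came from separate animals, so p-values refer to array-to-array spread within a genotype, part or all of which may be technical.

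Ion channels set the membrane potential and carry calcium into cells. Voltage-gated potassium channels repolarise muscle and nerve cells, and in lymphocytes and macrophages potassium channels keep the driving force for calcium entry. In the lung, potassium channels of arterial smooth muscle hold vascular tone, those of airway and alveolar epithelium support fluid transport, and TRP channels respond to stretch, oxidants and lipid messengers. In mice, heart muscle extends from the left atrium along the pulmonary veins into the lung, so lung RNA can hold transcripts of cardiac channels.

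T-bet itself (Tbx21) had log2 levels of 3.25 and 3.26 in tg/tg lungs, 1.30 and 1.34 in tg/wt lungs, and -0.70 and -0.71 in WT lungs, where 0 is the 75th percentile of the array's intensities. The genotype groups did not overlap and followed the transgene, at 15.6-fold over WT in tg/tg and 4.06-fold over WT in tg/wt. The 75th percentile ranged from 794 to 1204 intensity units over the 6 arrays, and between 62.0% and 66.8% of probes stood well above background. Arrays of 1 genotype correlated at 0.996 to 0.997 over all genes tested, and with 2 arrays per genotype the array number sets the precision. The tg/tg and WT arrays shared a slide and a scan, and the tg/wt arrays lay on another slide, so in comparisons with tg/wt the slide and the genotype cannot be told apart. The alveolar markers of lung were high in every group, with summed log2 levels of 10.2 to 10.4 in tg/tg, 9.97 to 10.2 in tg/wt and 10.2 in WT lungs.

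Many channel genes lay near the limit of the array. Only genes whose probe stood well above background on 2 or more arrays were tested, which held for 79 of the 132 channel genes (59.8%) and for 12968 of all 16358 genes (79.3%). Of the 53 channel genes not tested, 46 were well above background on no array. Of the 79 tested, 57 (72.2%) were well above background on all 6 arrays, against 91.6% of all genes tested. No channel gene passed through 1 genotype alone, but 9 of the 79 were well above background on neither tg/tg array, 2 on neither tg/wt array and 4 on neither WT array. Where a fold against such a group is printed it is a bound, and for Kcnip2, Cacna2d3 and Cacng8 only the log2 difference is given. Below, a value with ± is a log2 difference and its standard error from the fit, with n = 2 arrays per genotype.

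In tg/tg lungs more channel genes fell than rose relative to WT. With limma's moderated test and Benjamini-Hochberg adjustment over 12968 genes at a threshold of 0.05, 43 of the 79 channel genes (54.4%) were lower, against 40.8% of all genes, and 15 (19.0%) were higher, against 33.8% of all genes. Kcnq1ot1 was among the 15, so 14 of the 77 tested channel subunits were higher. The genome-wide shares are so large that a size rule of at least 2-fold was added: it left 26 channel genes lower (32.9%, against 12.3% of all genes) and 10 higher (12.7%, against 10.9%). All 9 channel genes that were well above background on neither tg/tg array were among the 43 lower genes. Of these, Cacna1g and Kcna2 were among the 26, with falls of at least only 1.20-fold and 1.19-fold. Also among the 26 were Kcna5, Kcnd2, Kcnip4, Kcnj11 and Kcnn2, whose bounds were 2.07-fold or more. The median log2 difference, tg/tg minus WT, was -0.33 over the channel genes and -0.05 over all genes. The median size of the difference without its sign was 0.93 over the channel genes and 0.42 over all genes. Channel genes were more often dim than all genes, and the size of dim genes' differences depended on the background correction, as given below. The part of dim signals in these contrasts of size was not tested. In the fit within the slide that held both genotypes the counts were 43 lower, against 40.0% of all genes, and 15 higher, against 33.3%.

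**Figure D1:**
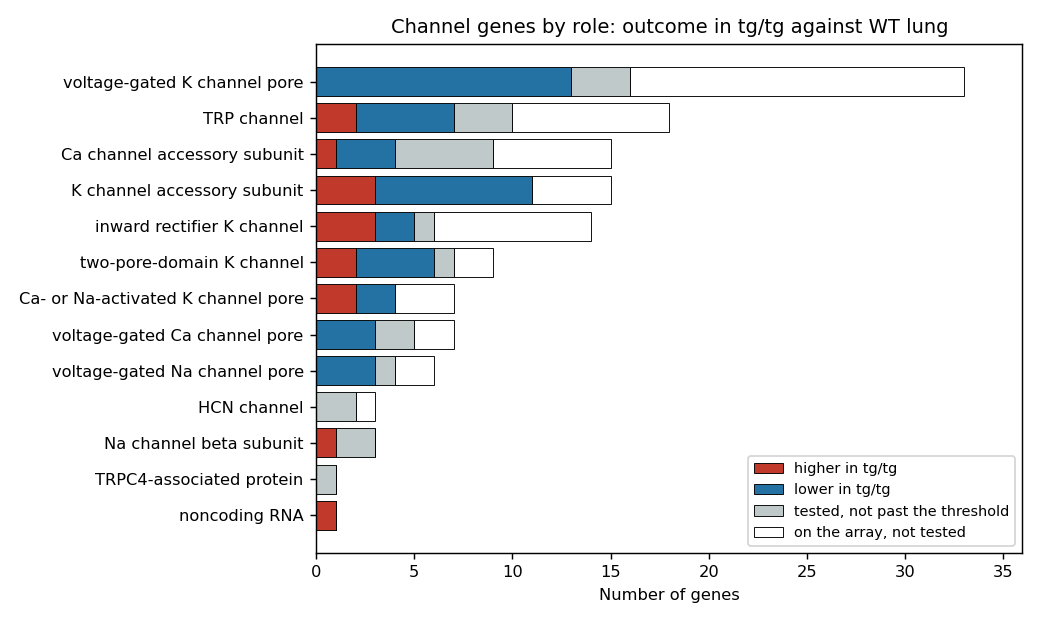
Number of channel genes in each role class, as horizontal stacked bars, split into genes higher in tg/tg than in WT lung, genes lower, genes tested but not past the threshold, and genes on the array that were not tested. Voltage-gated potassium channel pores have 13 lower genes and 0 higher, while inward rectifiers and calcium- or sodium-activated pores hold both.

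By role, voltage-gated potassium channel pores were lower in 13 of 16 tested genes and higher in 0, with a median difference of -1.10. Voltage-gated sodium channel pores were lower in 3 of 4 and calcium channel pores in 3 of 5, with 0 higher in either class. Potassium channel accessory subunits were lower in 8 of 11 and higher in 3, and two-pore-domain channels were lower in 4 of 7 and higher in 2. Inward rectifiers were higher in 3 of 6 and lower in 2, and TRP channels were lower in 5 of 10 and higher in 2. No role class was tested against another.

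**Figure D2:**
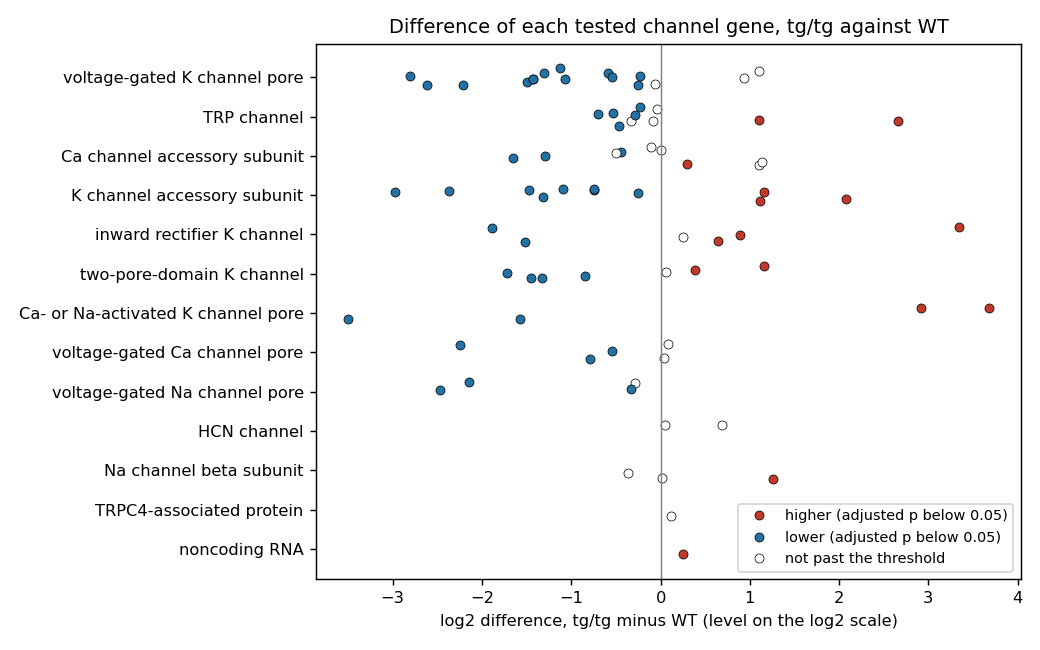
Log2 difference of each of the 79 tested genes, tg/tg minus WT, by role class; filled points passed the adjusted p threshold and open points did not, and vertical offsets only separate points. The differences run from -3.50 for Kcnn2 to 3.67 for Kcnt1.

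Among the voltage-gated potassium channel pores the largest falls were in members of the Shaker and Shal families. Kcna5, a delayed rectifier of atrial muscle and pulmonary arterial smooth muscle, had log2 levels of -5.84 and -6.26 in tg/tg lungs, -3.75 and -4.03 in tg/wt lungs, and -3.21 and -3.28 in WT lungs. Both tg/tg arrays were below all others and neither was well above background, so the fall was at least 4.18-fold, with a fitted difference of -2.81 ± 0.170 (adjusted p = 9.34e-05). Kcna1, the founding Shaker relative in mammals, had levels of -4.55 and -4.85 in tg/tg lungs, -2.22 and -2.45 in tg/wt lungs, and -2.06 and -2.09 in WT lungs, measured on all 6 arrays, and was 6.15-fold lower in tg/tg than in WT, a difference of -2.62 ± 0.127 (adjusted p = 4.24e-05). For Kcnd2, which carries fast transient outward current in heart and neurons, the levels were -6.00 and -6.13 in tg/tg lungs, -4.90 and -4.56 in tg/wt lungs, and -3.87 and -3.84 in WT lungs, with no tg/tg array well above background and a fall of at least 2.74-fold (-2.21 ± 0.122, adjusted p = 6.71e-05). In both Kcna5 and Kcnd2 the tg/wt arrays lay between the other groups without overlap.

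Pores with levels well clear of background on all 6 arrays fell as well. Kcnq1, which with KCNE partners carries potassium current in epithelia and heart, had levels of 0.64 and 0.72 in tg/tg lungs, 1.93 and 1.93 in tg/wt lungs, and 2.03 and 1.95 in WT lungs and was 2.48-fold lower in tg/tg (-1.31 ± 0.0466, adjusted p = 1.54e-05). The tg/tg arrays stood apart, and tg/wt and WT differed by less than the threshold required (-0.06 ± 0.0466, adjusted p = 0.393). Kcnh2, the hERG pore of the rapid delayed rectifier, had levels of -2.10 and -2.15 in tg/tg lungs, -1.02 and -0.94 in tg/wt lungs, and -0.64 and -0.76 in WT lungs and fell 2.69-fold (-1.43 ± 0.0580, adjusted p = 2.34e-05). Kcns3, a silent subunit that modifies other pores, had levels of -0.76 and -0.70 in tg/tg lungs, 0.61 and 0.58 in tg/wt lungs, and 0.38 and 0.42 in WT lungs and fell 2.19-fold in tg/tg (-1.13 ± 0.0400, adjusted p = 1.52e-05), while tg/wt lay above WT.

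Other calls among these pores depended on the background correction or on single arrays. Kcnf1, another silent subunit, lay close to background in tg/tg and was lower by 2.10-fold (-1.07 ± 0.0699, adjusted p = 1.24e-04), a difference that normexp background correction changed to -0.36. Kcna2 fell by at least 1.19-fold (-1.50 ± 0.351, adjusted p = 0.0136), a call lost with normexp (-0.21) and without WT array 2 (-1.41). Kcnc4 (-0.59 ± 0.166, adjusted p = 0.0257), Kcnh6 (-0.23 ± 0.0547, adjusted p = 0.0143) and Kcna7 (-0.25 ± 0.0754, adjusted p = 0.0322) each lost the call without one or more single arrays and with normexp, where the differences were -0.16, -0.15 and -0.12. Kcnh1, an ether-a-go-go pore, fell 1.45-fold (-0.54 ± 0.106, adjusted p = 0.00728).

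Kcna3, the main voltage-gated potassium channel of T lymphocytes, was read at levels of -5.05 and -4.88 in tg/tg lungs, -5.83 and -5.74 in tg/wt lungs, and -4.35 and -7.78 in WT lungs. The tg/tg arrays lay between the WT arrays, which were far apart, and the difference of 1.10 was not past the threshold (95% interval -1.80 to 4.0, adjusted p = 0.410). The WT arrays decided its value: without WT array 1 the difference was 2.81 and passed, and without WT array 2 it was -0.62 and passed in the other direction. Kcnc1 (0.93, interval -2.13 to 3.99) also did not pass.

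Potassium channel accessory subunits moved in both directions. Kcnip4, a calcium-binding partner of Kcnd pores, had levels of -5.85 and -6.03 in tg/tg lungs, -3.18 and -3.00 in tg/wt lungs, and -2.99 and -2.94 in WT lungs, and with neither tg/tg array well above background its fall was at least 5.06-fold (-2.98 ± 0.0896, adjusted p = 9.16e-06). Kcne3, which holds Kcnq1 open in epithelia, had levels of -4.37 and -4.11 in tg/tg lungs, -2.60 and -2.63 in tg/wt lungs, and -1.85 and -1.88 in WT lungs and was 5.18-fold lower in tg/tg (-2.37 ± 0.0882, adjusted p = 1.76e-05), with tg/wt between the other groups. Kcne2, another partner of Kcnq1 and Kcnh2, had levels of 1.68 and 1.76 in tg/tg lungs, 2.35 and 2.39 in tg/wt lungs, and 2.45 and 2.48 in WT lungs and fell 1.67-fold (-0.74 ± 0.0439, adjusted p = 8.53e-05). The groups of these 3 genes did not overlap between tg/tg and WT.

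The 3 tested beta subunits of the large-conductance calcium-activated channel were lower in tg/tg. Kcnmb1, the smooth muscle subunit, had levels of -4.79 and -4.54 in tg/tg lungs, -3.82 and -3.87 in tg/wt lungs, and -3.52 and -3.63 in WT lungs and fell 2.13-fold (-1.09 ± 0.0930, adjusted p = 3.18e-04). Kcnmb2 fell 2.49-fold (-1.32 ± 0.201, adjusted p = 0.00283) and Kcnmb4 fell 2.79-fold (-1.48 ± 0.0733, adjusted p = 4.60e-05). Their pore gene Kcnma1 was on the array but not well above background on any of its arrays and was not tested. Kcnip2, a cardiac partner of Kcnd pores, had a difference of -0.74 ± 0.0681 (adjusted p = 4.26e-04) between signals that in tg/tg were not well above background, and a floor on low values turned it to 0.14. Kcnab1 (-0.25 ± 0.0695, adjusted p = 0.0233) lost its call with normexp, at 0.03, and without tg/tg array 2 or either WT array.

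Accessory subunits that rose were Kcnab2, Kcnip3 and Kcne4. Kcnab2, a cytoplasmic beta subunit of Shaker pores that is abundant in lymphocytes, had levels of -0.12 and -0.19 in tg/tg lungs, -1.68 and -1.65 in tg/wt lungs, and -2.23 and -2.24 in WT lungs. Its 3 groups followed the transgene without overlap, and tg/tg was 4.23-fold above WT (2.08 ± 0.0385, adjusted p = 2.51e-06). Kcnip3, a calcium sensor that also acts as a transcriptional repressor, had levels of -2.57 and -2.35 in tg/tg lungs, -3.35 and -3.43 in tg/wt lungs, and -3.66 and -3.57 in WT lungs and rose 2.23-fold (1.16 ± 0.0856, adjusted p = 1.92e-04). Kcne4, which inhibits Kcnq1 and Kcna3 currents when co-expressed, had levels of -0.75 and -0.61 in tg/tg lungs, -2.27 and -2.35 in tg/wt lungs, and -1.82 and -1.77 in WT lungs. The tg/tg arrays exceeded the WT arrays 2.17-fold (1.12 ± 0.0614, adjusted p = 6.64e-05), and its tg/wt arrays lay below both other groups.

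The pores gated by intracellular calcium or sodium split by subunit. Kcnn4, the intermediate-conductance calcium-activated channel of T cells, macrophages and epithelia, had levels of 1.64 and 1.60 in tg/tg lungs, -1.16 and -1.01 in tg/wt lungs, and -1.30 and -1.30 in WT lungs. Both tg/tg arrays stood far above the other 4, at 7.55-fold over WT (2.92 ± 0.0593, adjusted p = 3.14e-06). Kcnt1, a sodium-activated channel, had levels of -3.35 and -3.39 in tg/tg lungs, -5.43 and -6.21 in tg/wt lungs, and -7.43 and -6.66 in WT lungs and was well above background on both tg/tg arrays, 1 tg/wt array and no WT array, so its rise was at least 4.50-fold (3.67 ± 0.359, adjusted p = 5.32e-04). The small-conductance channels went the other way. Kcnn2, of atrial muscle and neurons, had levels of -5.67 and -5.56 in tg/tg lungs, -2.2 and -2.19 in tg/wt lungs, and -2.13 and -2.11 in WT lungs: the tg/tg signals were not well above background, the other 4 arrays lay close together, and the fall was at least 9.1-fold (-3.50 ± 0.0486, adjusted p = 1.27e-06). Kcnn1 was 2.99-fold lower in tg/tg, where 1 of 2 arrays was well above background (-1.58 ± 0.0464, adjusted p = 8.49e-06).

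To set sequence beside the measurements, the 250 bases before each annotated start of the called genes were searched on both strands for 4 motifs of immune transcription factors. RefSeq windows on GRCm38.p6 were matched by symbol for 13 of the 15 higher genes (20 windows) and 31 of the 43 lower genes (43 windows). The interferon-gamma activated site TTCNNNGAA was in 1 of the higher genes' windows (5%), 3 of the lower genes' (6.98%) and 7.02% of all 32851 windows. The interferon-stimulated element GAAANNGAAA was in 0 of the higher genes' windows, 3 of the lower genes' (6.98%) and 2.98% of all windows. Those 3 windows came from Kcnab1 and Kcna7 alone, whose calls did not hold with normexp. The T-box core GGTGTGA was in 0 of the higher genes' windows, 2 of the lower genes' (4.65%) and 3.33% of all. The PU.1 and Ets site GAGGAAGT was in 2 of the higher genes' windows (10%), both of them overlapping windows of Trpv2, in 0 of the lower genes' and in 2.44% of all windows. A match is a run of letters, not evidence of binding, and shares of so few windows were not tested. Shown first are the windows of the largest rises measured on all 6 arrays, Kcnn4 (chr7:24370013-24370262, plus strand) and Trpm2 (chr10:77969873-77970122, minus strand), which held none of the 4 motifs. Then follow those of the higher genes with a match in capitals, Kcnip3 (chr2:127522095-127522344, minus strand, TTCNNNGAA 64 to 56 bases before the start) and Trpv2 (chr11:62574236-62574485, plus strand, GAGGAAGT 14 to 7 bases before the start).
Kcnn4: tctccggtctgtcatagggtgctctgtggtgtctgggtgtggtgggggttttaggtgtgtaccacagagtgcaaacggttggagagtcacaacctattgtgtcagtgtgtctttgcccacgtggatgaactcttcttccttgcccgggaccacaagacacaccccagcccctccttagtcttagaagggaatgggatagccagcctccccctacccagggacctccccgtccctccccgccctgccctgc
Trpm2: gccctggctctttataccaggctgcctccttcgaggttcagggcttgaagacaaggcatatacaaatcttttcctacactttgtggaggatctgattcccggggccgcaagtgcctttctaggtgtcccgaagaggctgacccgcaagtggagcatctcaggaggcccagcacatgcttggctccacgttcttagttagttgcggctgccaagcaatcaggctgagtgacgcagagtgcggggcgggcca
Kcnip3: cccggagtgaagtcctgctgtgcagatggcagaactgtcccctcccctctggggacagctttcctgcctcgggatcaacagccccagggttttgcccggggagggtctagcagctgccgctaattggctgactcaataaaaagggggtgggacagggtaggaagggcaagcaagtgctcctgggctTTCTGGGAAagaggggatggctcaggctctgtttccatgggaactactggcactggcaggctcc
Trpv2: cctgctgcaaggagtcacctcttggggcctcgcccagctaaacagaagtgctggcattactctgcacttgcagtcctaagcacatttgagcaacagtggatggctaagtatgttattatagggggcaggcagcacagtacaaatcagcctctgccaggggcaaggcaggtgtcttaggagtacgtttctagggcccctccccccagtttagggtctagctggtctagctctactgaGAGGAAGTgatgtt

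Inward rectifiers pass potassium more readily into the cell than out of it. Kcnj10, a channel of glia and kidney tubule, had levels of -2.0 and -1.93 in tg/tg lungs, -4.24 and -4.06 in tg/wt lungs, and -4.91 and -5.69 in WT lungs. The 3 groups did not overlap, 1 of 2 WT arrays was well above background, and tg/tg was 10.1-fold above WT (3.34 ± 0.262, adjusted p = 2.37e-04). The pores of the ATP-sensitive channel moved apart. Kcnj8, the vascular and pericyte pore, had levels of 3.30 and 3.27 in tg/tg lungs, 2.48 and 2.46 in tg/wt lungs, and 2.64 and 2.64 in WT lungs and was 1.56-fold higher in tg/tg (0.65 ± 0.0328, adjusted p = 5.02e-05), whereas Kcnj11, the pore of pancreatic and muscle cells, had levels of -5.77 and -5.78 in tg/tg lungs, -5.01 and -5.41 in tg/wt lungs, and -4.07 and -4.45 in WT lungs and fell by at least 2.07-fold (-1.52 ± 0.180, adjusted p = 0.00109).

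Kcnj12, a strong inward rectifier of heart and skeletal muscle, had levels of -4.12 and -4.27 in tg/tg lungs, -2.31 and -2.38 in tg/wt lungs, and -2.30 and -2.32 in WT lungs, with tg/tg apart from the other 4 arrays and 3.69-fold below WT (-1.88 ± 0.0624, adjusted p = 1.23e-05). Kcnj4, its relative, was not well above background in WT and rose by at least 1.62-fold (0.88 ± 0.206, adjusted p = 0.0132), a call lost without tg/tg array 1 (0.81) or WT array 2 (0.77). Kcnj2, the strong inward rectifier of muscle and macrophages, was not past the threshold (0.25, interval -0.66 to 1.16).

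**Figure D3:**
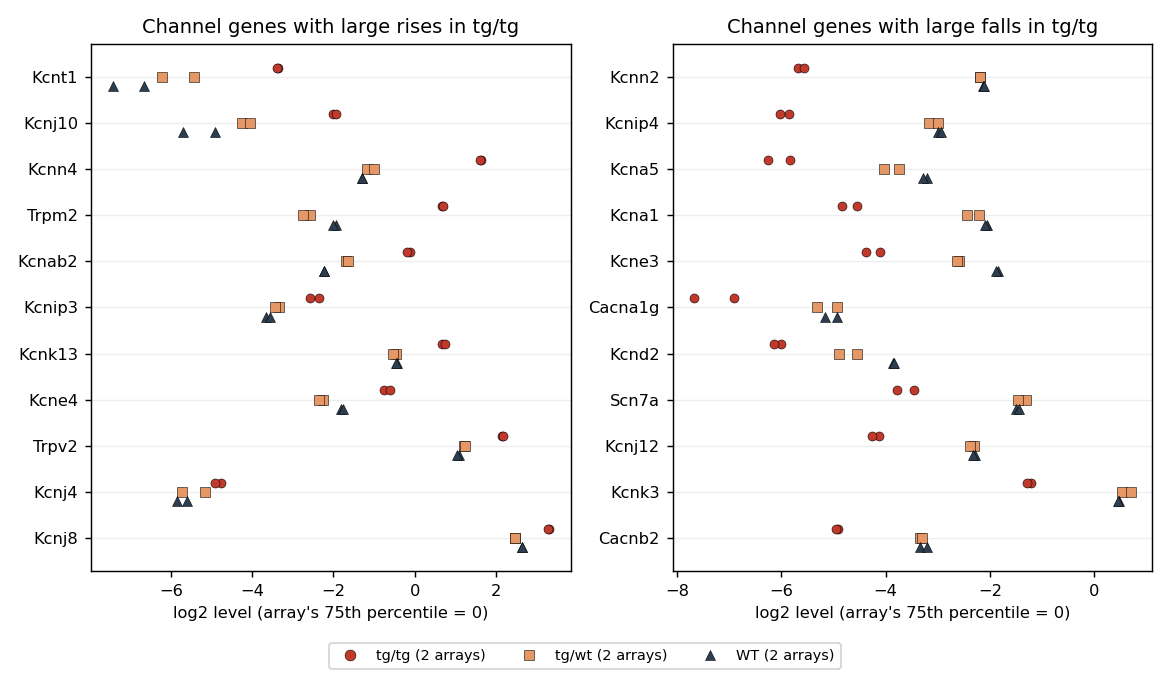
Log2 level on each array, where 0 is the array's 75th percentile, of channel genes among those with the largest rises (left) and falls (right) in tg/tg against WT; circles are tg/tg, squares tg/wt and triangles WT. In each of these genes both tg/tg arrays lie on one side of both WT arrays, and levels of different genes come from different probes and are not comparable.

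The two-pore-domain potassium channels carry background current. Kcnk3, which sets the resting potential of pulmonary artery smooth muscle and is mutated in some human pulmonary arterial hypertension, had levels of -1.22 and -1.29 in tg/tg lungs, 0.54 and 0.69 in tg/wt lungs, and 0.48 and 0.46 in WT lungs. The tg/tg arrays lay below the other 4, at 3.30-fold below WT (-1.72 ± 0.0634, adjusted p = 1.71e-05). Kcnk2, a stretch- and lipid-sensitive channel, fell 2.51-fold (-1.33 ± 0.102, adjusted p = 2.21e-04), Kcnk12 fell 2.73-fold (-1.45 ± 0.105, adjusted p = 1.76e-04), and Kcnk5, an alkali-activated epithelial channel, fell 1.80-fold (-0.85 ± 0.0880, adjusted p = 6.69e-04). Kcnk13, a channel of microglia and other macrophages, had levels of 0.67 and 0.75 in tg/tg lungs, -0.47 and -0.52 in tg/wt lungs, and -0.43 and -0.46 in WT lungs and rose 2.23-fold (1.16 ± 0.0462, adjusted p = 2.21e-05), apart from the other 4 arrays, which lay close together. Kcnk1 rose 1.31-fold (0.39 ± 0.0386, adjusted p = 5.88e-04). Kcnk6, through which mouse macrophages lose potassium, was not past the threshold (0.06, interval -0.07 to 0.19).

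Of the voltage-gated sodium channel genes, Scn7a, a sodium-sensing relative of glia and Schwann cells, had levels of -3.78 and -3.46 in tg/tg lungs, -1.31 and -1.47 in tg/wt lungs, and -1.51 and -1.45 in WT lungs and was 4.42-fold lower in tg/tg (-2.14 ± 0.121, adjusted p = 7.30e-05), with overlapping tg/wt and WT arrays. Scn4a, the skeletal muscle pore, fell 1.26-fold (-0.33 ± 0.0590, adjusted p = 0.00499), and Scn10a, of sensory neurons, did not pass (-0.29, interval -1.04 to 0.46). Of the beta subunits, Scn2b (-0.36, interval -0.90 to 0.17) and Scn3b (0.01, interval -0.24 to 0.27) were not past the threshold.

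No calcium channel pore passed as higher in tg/tg. Cacna1h, a low-threshold T-type pore, had levels of -4.37 and -4.75 in tg/tg lungs, -4.89 and -5.03 in tg/wt lungs, and -3.83 and -3.70 in WT lungs, lower by 1.73-fold in tg/tg (-0.79 ± 0.141, adjusted p = 0.00499) and also below WT in tg/wt. With normexp its tg/tg difference was -0.27 and kept its call. Cacna1g, the other T-type pore, was not well above background in tg/tg and fell by at least 1.20-fold (-2.24 ± 0.283, adjusted p = 0.00139), and with a floor on low values the difference was -0.26 and did not pass. Cacna1a, of presynaptic P/Q-type channels, fell by at least 1.39-fold (-0.54 ± 0.0788, adjusted p = 0.00235), a call lost with normexp (-0.12). The L-type pores of smooth and cardiac muscle, Cacna1c (0.08, interval -0.23 to 0.39) and Cacna1d (0.03, interval -0.16 to 0.22), were not past the threshold.

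Among the calcium channel accessory subunits, Cacnb2, which brings cardiac pores to the membrane, had levels of -4.91 and -4.96 in tg/tg lungs, -3.34 and -3.30 in tg/wt lungs, and -3.35 and -3.21 in WT lungs. In tg/tg 1 array was well above background, and the gene was 3.15-fold lower in tg/tg (-1.66 ± 0.0583, adjusted p = 1.49e-05). Cacna2d1, the widely expressed alpha2delta subunit, fell 2.46-fold (-1.30 ± 0.119, adjusted p = 4.25e-04), and Cacnb1 fell 1.36-fold (-0.44 ± 0.0529, adjusted p = 0.00115). Cacnb3, which is expressed in T cells, had levels of 0.13 and 0.14 in tg/tg lungs, -0.13 and -0.11 in tg/wt lungs, and -0.20 and -0.11 in WT lungs and rose 1.23-fold (0.29 ± 0.0434, adjusted p = 0.00254). Cacna2d2 did not pass by its brightest probe (0.00, interval -0.25 to 0.26), while a dimmer probe was lower at -1.70. Cacnb4 (-0.50, interval -1.17 to 0.17), Cacng7 (-0.11, interval -0.31 to 0.08), Cacna2d3 (1.11, interval -1.92 to 4.13) and Cacng8 (1.13, interval -0.54 to 2.80) did not pass. The hyperpolarisation-activated pacemaker channels Hcn2 (0.05, interval -0.81 to 0.91) and Hcn3 (0.68, interval -0.51 to 1.88) did not pass either, and the tg/tg arrays decided the value of Hcn3, which was 0.01 without tg/tg array 1, and which passed at 1.36 without tg/tg array 2.

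TRP channels are nonselective cation channels, most of them permeable to calcium. Trpm2, opened by ADP-ribose during oxidative stress and abundant in phagocytes, had levels of 0.68 and 0.70 in tg/tg lungs, -2.57 and -2.74 in tg/wt lungs, and -1.93 and -2.01 in WT lungs. Both tg/tg arrays lay above the other 4, at 6.32-fold over WT (2.66 ± 0.0705, adjusted p = 6.29e-06). Trpv2, expressed in macrophages and needed for their phagocytosis in mice, had levels of 2.16 and 2.17 in tg/tg lungs, 1.21 and 1.24 in tg/wt lungs, and 1.09 and 1.04 in WT lungs and was 2.14-fold higher in tg/tg (1.10 ± 0.0359, adjusted p = 1.17e-05). The lower members named here were the diacylglycerol-gated Trpc6 (-0.53 ± 0.0511, adjusted p = 5.01e-04), the calcium-activated Trpm4 (-0.47 ± 0.0475, adjusted p = 6.07e-04), the epithelial calcium channel Trpv6 (-0.29 ± 0.0379, adjusted p = 0.00167) and the magnesium channel kinase Trpm6 (-0.23 ± 0.0429, adjusted p = 0.00610). Trpc6, which carries calcium into pulmonary artery smooth muscle, had levels of -1.61 and -1.53 in tg/tg lungs, -0.94 and -0.85 in tg/wt lungs, and -1.02 and -1.06 in WT lungs, so the fall was 1.45-fold. Not past the threshold were Trpm7, the ubiquitous channel kinase (-0.09, interval -0.21 to 0.03), Trpc1 (-0.33, interval -0.64 to -0.02) and Trpv4, the osmo- and stretch-sensitive channel of lung epithelium and endothelium (-0.04, interval -0.13 to 0.05).

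Of the genes that the symbols caught but that are no channel subunits, Kcnq1ot1, an imprinted transcript antisense to Kcnq1, had levels of -0.96 and -0.95 in tg/tg lungs, -1.11 and -1.14 in tg/wt lungs, and -1.22 and -1.19 in WT lungs and was 1.19-fold higher in tg/tg (0.25 ± 0.0333, adjusted p = 0.00170), opposite to Kcnq1. Trpc4ap was not past the threshold by its brightest probe (0.11, interval 0.00 to 0.22), but it passed as higher under some alternatives, as given below.

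Background correction set the size of the differences of dim genes. With normexp, which fits the background and adds an offset to the signals, the direction was kept in 57 of the 58 called genes but the difference moved by more than 1.5 times in 30 and the call was lost or turned in 7. The difference was 1.17 for Kcnt1, 1.83 for Kcnj10, -1.60 for Kcnn2, -1.11 for Kcnip4, -0.98 for Kcna5, -1.51 for Kcna1, -0.68 for Kcnd2, -1.49 for Kcne3, -1.42 for Scn7a, -1.10 for Kcnj12, -0.59 for Cacnb2 and -0.44 for Kcnj11. Also moved by more than 1.5 times, with calls kept, were Kcnip3 (0.74), Kcnk2 (-0.73), Kcnn1 (-0.57), Kcnk5 (-0.54) and Kcnmb1 (-0.50). Kcnn4, Trpm2, Kcnab2, Kcnk3 and Kcnq1 moved by less than 1.5 times.

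Markers of several cell types moved with the genotypes, and in RNA of a whole lung fewer cells of a type and less RNA per cell cannot be told apart. All 8 heart muscle markers tested, of 9 listed, were lower in tg/tg than in WT, with a median difference of -4.11. Their summed log2 levels were 3.75 to 3.79 in tg/tg, 6.82 to 6.83 in tg/wt and 7.85 to 7.87 in WT lungs. Smooth muscle and pericyte markers were lower in 7 of 8 (6.16 to 6.19 in tg/tg, 7.29 in tg/wt and 7.20 in WT), and skeletal muscle markers in 5 of 6, with summed levels of -0.40 to -0.33 in tg/tg, 1.27 to 1.33 in tg/wt and 2.12 to 2.17 in WT. Endothelial markers were lower in 6 of 6 (5.48 to 5.49 in tg/tg, 6.75 to 6.78 in tg/wt and 6.88 to 6.91 in WT), and airway markers in 6 of 6 (8.66 to 8.82 in tg/tg, 9.5 to 9.76 in tg/wt and 9.87 to 9.89 in WT). The cardiac channel genes Kcna5, Kcnd2, Kcnj12, Cacnb2 and Kcnn2 and the vascular genes Kcnk3, Kcnmb1 and Trpc6 fell beside these lists, whose part in those falls was not tested. Not all channel genes of these tissues fell: Kcnj8, of vessels and pericytes, rose by 0.65 on the log2 scale, and the muscle pores Cacna1c (0.08) and Cacna1d (0.03) did not pass.

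The T cell, monocyte and macrophage, and neutrophil lists moved the other way, and the B cell list did not. T cell markers were higher in tg/tg than in WT in 6 of 6 tested, with summed log2 levels of 5.14 to 5.16 in tg/tg, 2.65 to 2.67 in tg/wt and 1.35 to 1.42 in WT. Monocyte and macrophage markers were higher in 5 of 5, with 8.62 to 8.71 in tg/tg, 5.66 to 5.70 in tg/wt and 5.11 to 5.13 in WT. Neutrophil markers were higher in 6 of 6 in tg/tg and lower in 5 of 6 in tg/wt, with 6.42 to 6.43 in tg/tg, 3.84 to 3.88 in tg/wt and 5.72 to 5.76 in WT. B cell markers were lower in 3 of 4 in tg/tg and higher in 4 of 4 in tg/wt, with 1.78 to 1.80 in tg/tg, 3.28 to 3.31 in tg/wt and 2.47 to 2.49 in WT. Neuron and Schwann cell markers were higher in 2 and lower in 2 of 5 tested in tg/tg. The channel genes Kcnn4, Trpm2, Trpv2, Kcnk13 and Kcnab2, which leukocytes express, rose beside the 3 higher lists, whose part in those rises was not tested. Other channel genes of T cells or macrophages, Kcna3 (1.10), Kcnk6 (0.06) and Kcnj2 (0.25), did not pass. Apart from the skeletal muscle gene Ckm in tg/tg, every marker tested was well above background on at least 1 array of each genotype.

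In tg/wt lungs fewer channel genes differed from WT. Relative to WT, 9 of 79 were higher (11.4%, against 13.4% of all genes) and 15 were lower (19.0%, against 14.6%), with a median difference of -0.04 over the channel genes and a median size of 0.21. The shares lay near those of all genes. Many of these calls were lost on leaving out 1 array. Calls over all genes became fewer as well, so the loss was not particular to the channel genes. The higher count was 4 without a filter on dim probes, where 7.34% of all genes were higher, and 4 with replicate number as a block (9.79% of all genes). The calls of 7 genes (Kcna7, Kcnab2, Kcne3, Cacna1h, Kcne4, Trpm2 and Trpv4) held under all 18 alternatives.

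The largest rise in tg/wt relative to WT was in Kcna7, a Shaker pore of heart and skeletal muscle, with levels of -2.78 and -2.68 in tg/tg lungs, -0.76 and -0.58 in tg/wt lungs, and -2.47 and -2.49 in WT lungs. Both tg/wt arrays stood above the other 4, at 3.50-fold over WT (1.81 ± 0.0754, adjusted p = 5.14e-04), while tg/tg lay slightly below WT. Kcnj10 was 2.22-fold higher (1.15 ± 0.262, adjusted p = 0.0349), a call lost without either tg/wt array or either tg/tg array. Its difference was 0.76 without WT array 2 and 0.37 with normexp. Kcnab2 was 1.49-fold higher (0.57 ± 0.0385, adjusted p = 0.00148). Cacna1a (0.42 ± 0.0788, adjusted p = 0.0216) and Scn3b (0.38 ± 0.0977, adjusted p = 0.0462) were higher, but each call was lost on leaving out any single array of tg/wt or WT.

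The largest falls in tg/wt were in Cacna1h, 2.29-fold (-1.19 ± 0.141, adjusted p = 0.00653), Kcnmb2, 2.0-fold (-1.0 ± 0.201, adjusted p = 0.0255), and Kcnj11, 1.94-fold with 1 of 2 tg/wt arrays well above background (-0.95 ± 0.180, adjusted p = 0.0220). With normexp the differences of Cacna1h and Kcnj11 shrank to -0.56 and -0.37 and kept their calls. Kcnmb2 had levels of -2.81 and -3.41 in tg/tg lungs, -2.86 and -2.73 in tg/wt lungs, and -1.77 and -1.81 in WT lungs, so both transgenic genotypes lay below WT. Its call was lost on leaving out any single tg/wt or WT array, and that of Kcnj11 without tg/wt array 2 or WT array 1. Kcnd2 (-0.87 ± 0.122, adjusted p = 0.0104, call lost without either WT array) and Kcne3 (1.68-fold lower, -0.75 ± 0.0882, adjusted p = 0.00652) were below WT in tg/wt and lower again in tg/tg. For Kcnd2 the further fall from tg/wt to tg/tg was at least 1.49-fold. With normexp its differences were -0.45 in tg/wt against WT and -0.23 in tg/tg against tg/wt, and both calls were lost. Trpm2 was 1.61-fold lower in tg/wt (-0.69 ± 0.0705, adjusted p = 0.00466), opposite to tg/tg. Heart muscle markers were lower in 8 of 8 in tg/wt, with a median difference of -0.99, and their part in the falls of channel genes was not tested. The cardiac channel genes named beside that list in tg/tg did not all fall in tg/wt. Kcnd2 and Kcna5 (-0.65, a call lost on leaving out any single tg/wt or WT array) were lower. Kcnn2 (-0.08), Kcnj12 (-0.04) and Cacnb2 (-0.04) did not pass, and Kcna7, of heart and skeletal muscle, was higher (1.81).

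**Figure D4:**
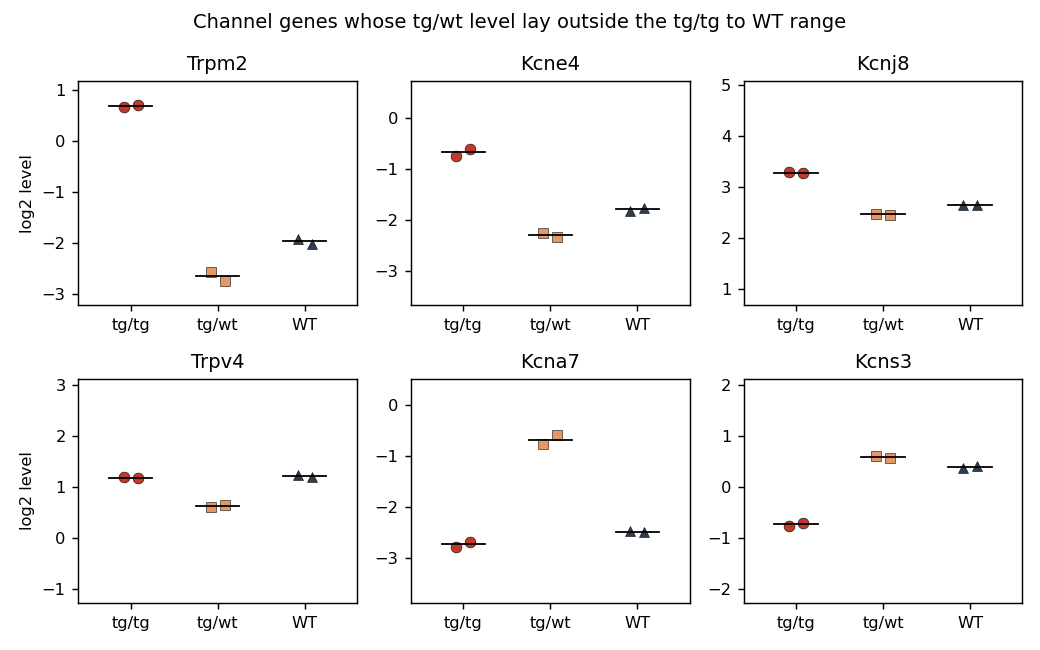
Log2 level on each array (0 is the array's 75th percentile) of 6 channel genes whose tg/wt arrays lay outside the range of the tg/tg and WT arrays; points are single arrays, 2 per genotype, and lines are means, with vertical axes of equal span. Trpm2, Kcne4, Kcnj8 and Trpv4 were lowest in tg/wt, and Kcna7 and Kcns3 were highest there.

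Several channel genes did not follow transgene dose. Trpm2, Kcne4 and Kcnj8 were higher in tg/tg than in WT and lower in tg/wt, where Kcne4 differed by -0.51 ± 0.0614 (adjusted p = 0.00682) and Kcnj8 by -0.17 ± 0.0328 (adjusted p = 0.0227) with a call lost on leaving out any single tg/wt or WT array. Trpv4, with levels of 1.20 and 1.18 in tg/tg lungs, 0.61 and 0.65 in tg/wt lungs, and 1.25 and 1.21 in WT lungs, was 1.51-fold lower in tg/wt than in WT (-0.60 ± 0.0359, adjusted p = 0.00116) and not past the threshold in tg/tg. In the other direction, Kcna7, Kcns3 and Cacna1a were lower in tg/tg and higher in tg/wt, where Kcns3 differed by 0.20 ± 0.0400 (adjusted p = 0.0268) and lost its call on leaving out any single tg/wt or WT array. The tg/wt call of Cacna1a was lost in the same way, and neither of its tg/tg arrays was well above background. With normexp the tg/tg differences of Kcna7 and Cacna1a were -0.12 each, and both calls were lost. The tg/tg call of Kcna7 was also lost without tg/tg array 1 or either WT array. Higher in both genotypes than in WT, and in tg/tg than in tg/wt, were 3 genes (Kcnj10, Kcnab2 and Trpv2), of which only Kcnab2 kept its tg/wt call under every alternative. Another 9 were lower in all 3 comparisons. The share of all genes with these patterns was not counted. The 6 genes were chosen for the figure after their values were seen, and the tg/wt arrays alone lay on the second slide.

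Between the transgenic genotypes, tg/tg against tg/wt, 44 of 79 channel genes were lower (55.7%, against 40.2% of all genes) and 18 higher (22.8%, against 34.0%), with a median difference of -0.42. Kcnq1ot1 and Trpc4ap were among the 18, which leaves 16 of 77 channel subunits. This comparison shares its tg/tg arrays with the first, so its values are given side by side with those and not as further support. Trpm2 differed most among the rises, at 10.2-fold (3.35 ± 0.0705, adjusted p = 4.19e-06), against 2.66 relative to WT. Kcnn4 was 6.51-fold higher (2.70 ± 0.0593, adjusted p = 4.59e-06), Kcnt1 5.47-fold (2.45 ± 0.359, adjusted p = 0.00249), Kcnj10 4.56-fold (2.19 ± 0.262, adjusted p = 0.00118), Kcne4 3.09-fold (1.63 ± 0.0614, adjusted p = 2.10e-05) and Kcnab2 2.85-fold (1.51 ± 0.0385, adjusted p = 6.78e-06).

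Among the largest falls in tg/tg relative to tg/wt were Kcnn2, at least 8.62-fold (-3.42 ± 0.0486, adjusted p = 1.77e-06), Kcnip4, at least 4.65-fold (-2.85 ± 0.0896, adjusted p = 1.21e-05), Kcna1, 5.14-fold (-2.36 ± 0.127, adjusted p = 6.60e-05), Scn7a, 4.71-fold (-2.24 ± 0.121, adjusted p = 6.83e-05), and Kcna5, at least 2.67-fold (-2.16 ± 0.170, adjusted p = 2.52e-04). Of the 43 genes lower in tg/tg than in WT, 28 were also lower in tg/tg than in tg/wt with no call between tg/wt and WT. Of the 15 higher genes, 9 had that pattern in the other direction. Over all genes too, calls of tg/tg against either genotype far outnumbered those of tg/wt against WT. The share of all genes with these patterns was not counted, so they are not shown to be particular to channel genes. With normexp, 27 of the differences between tg/tg and tg/wt moved by more than 1.5 times. They included Kcnn2 (-1.54), Kcnip4 (-0.94), Kcna1 (-1.28), Scn7a (-1.46), Kcna5 (-0.60), Kcnt1 (0.98) and Kcnj10 (1.46), each of which kept its call.

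Of 45 other ion channels and regulators that the symbol rule leaves out, 33 were tested. In tg/tg against WT 12 were higher (36.4%, against 33.8% of all genes) and 15 lower (45.5%, against 40.8%), shares near those of all genes. The lysosomal cation channel Mcoln2 had levels of 0.61 and 0.61 in tg/tg lungs, -2.80 and -2.88 in tg/wt lungs, and -3.38 and -3.22 in WT lungs and was 15-fold higher (3.91 ± 0.0629, adjusted p = 1.73e-06), the voltage-gated proton channel Hvcn1 of phagocytes and B cells 4.99-fold (2.32 ± 0.0525, adjusted p = 4.16e-06), and the endosomal chloride transporter Clcn5 5.81-fold (2.54 ± 0.120, adjusted p = 3.88e-05). Of the store-operated calcium entry genes, Orai1 (0.67 ± 0.0622, adjusted p = 4.35e-04) and Orai2 (1.11 ± 0.0341, adjusted p = 9.76e-06) were higher and the calcium sensor Stim1 (-0.64 ± 0.0560, adjusted p = 3.60e-04) was lower. The goblet cell gene Clca1, a secreted regulator of chloride current, had levels of -1.12 and -1.02 in tg/tg lungs, -0.52 and -0.60 in tg/wt lungs, and 4.45 and 4.44 in WT lungs, which put both transgenic genotypes far below WT (45.8-fold in tg/tg and 32.2-fold in tg/wt). The 2 tested two-pore channels of endosomes moved apart, with Tpcn2 higher (1.42 ± 0.0677, adjusted p = 4.0e-05) and Tpcn1 lower (-1.28 ± 0.0332, adjusted p = 6.02e-06). Lrrc26, a regulatory subunit of the large-conductance calcium-activated potassium channel, was lower (-1.38 ± 0.0474, adjusted p = 1.38e-05) as its beta subunits were, and the ATP-gated channel P2rx1 fell by at least 2.63-fold (-2.64 ± 0.244, adjusted p = 4.33e-04).

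The 53 channel genes not tested leave large parts of some classes unread: 17 of 33 voltage-gated potassium pores, 8 of 14 inward rectifiers and 8 of 18 TRP channels. They include Kcnma1, the G-protein-gated inward rectifiers Kcnj3 and Kcnj5 and the irritant receptor Trpa1. Low signal on this array is a bound and not evidence that a gene is silent. Where several probes of a tested gene passed the filter, which was so for 16 genes, 12 had the same call on each, 4 differed, Cacna2d2 and Trpc4ap among them, and none had opposite calls. The cardiac subunit genes Scn4b and Hcn4 and the skeletal muscle pore Cacna1s were not analysed here.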

How the data were processed

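Total RNA of mouse lungs, extracted with a column kit per the labels' protocols, was read in a single colour on Agilent arrays. The deposited values are scanner intensity values per spot from Feature Extraction, version 9.5.3.1 per the file headers and 9.1 per the submitters' processing notes, with processed signals already corrected for background by the authors' software. The deposited series value table held the background-subtracted intensity of the same spots, unscaled, and served as an alternative. Here log2 of the processed signal minus the array's 75th percentile was taken, control and outlier spots were left out, and spots of a probe were averaged. Probes were named by matching their accession to RefSeq (GRCm38.p6), since the files hold no gene name column, so the planned setting of accession matches alone equals the one used. A gene was represented by its probe of highest mean among those well above background on at least 2 arrays. limma 3.58.1 in R 4.3.3 (lmFit and eBayes, 3 genotype means, 6 arrays) tested 12968 genes with Benjamini-Hochberg adjustment at 0.05. All adjusted p-values printed come from it, each difference is given with its standard error and n = 2 arrays per genotype, and intervals are 95%. The fit was tested on simulated data.

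A probe well above background on neither array of a genotype has only a bound there, and its fold was set against the lowest signal well above background on those arrays. Named genes were the 12 largest rises and falls past the threshold in tg/tg against WT and the 6 largest in the other comparisons, among genes whose groups did not overlap and whose higher group was well above background on both arrays. Added were the gene of smallest p in a role class with none, and a list of known lung, muscle and immune channels. Other members, Orai1, Orai2 and Stim1 were named after their values were seen. The channel genes, lists and tests were chosen with earlier results of these data known. Alternatives changed the scaling, background correction (normexp on the median signal, as no mean signal column was present), filter, floor, probe rule, variance model, samples and replicate block. Some channel genes are not reported here.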

Additional observations from a re-analysis of the deposited data

How the results depend on the processing

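Of the calls in the channel genes, 48 of 58 in tg/tg against WT, 7 of 24 in tg/wt against WT and 46 of 62 in tg/tg against tg/wt kept direction and threshold under all 18 alternatives run. The counts higher and lower ranged from 14 to 19 and 37 to 44 in tg/tg against WT, 3 to 10 and 6 to 18 in tg/wt against WT, and 15 to 19 and 35 to 45 in tg/tg against tg/wt. A rule of at least 2-fold, chosen after seeing the data, left 10 higher and 26 lower in tg/tg against WT, among them Cacna1g and Kcna2 with bounds below 2-fold. In tg/wt against WT the 9 higher genes became 4 with no filter on dim probes, where 7.34% of all genes were higher. Leaving out 1 array lost many of the tg/wt calls, as it did over all genes. With replicate number as a block the counts were 15 and 44, 4 and 13, and 16 and 44 in the same order of comparisons. The shares of all genes there were 32.8% and 40.0%, 9.79% and 10.4%, and 32.8% and 39.4%. Shares of all genes moved with the settings as well. Those lower in tg/wt against WT were 7.39% without a filter on dim probes and 18.5% with a variance trend over intensity. Deviations of same-numbered arrays correlated at -0.046, -0.048 and 0.129, so the numbers were not taken to pair the arrays. Signs turned under normexp for Kcnab1 (0.0281 in tg/tg against WT) and Cacng7 (-0.0025 in tg/wt against WT and 0.0236 in tg/tg against tg/wt), and under a floor for Kcna3 (-0.05) and Kcnip2 (0.14 in tg/tg against WT and 0.18 in tg/tg against tg/wt). Trpc4ap turned to -0.0181 in tg/tg against tg/wt with quantile normalization, and it passed in tg/tg against WT at 0.32 with the mean of its probes. Leaving out 1 array moved the tg/tg against WT difference of genes without a call between -0.0731 and 0.0942 for Scn3b, -0.0510 and 0.21 for Cacna1c, -0.0549 and 0.12 for Cacna1d, -0.0781 and 0.58 for Kcnj2, -0.24 and 0.34 for Hcn2, and -0.62 and 2.81 for Kcna3. The cause was not tested. Signal over background limits the dim genes: normexp moved 30 of 58 called differences by more than 1.5 times.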
